A study of Mus musculus with 8 samples.

Results

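Il17a and Il17f, the linked genes of the cytokines interleukin-17A (IL-17A) and interleukin-17F (IL-17F), were followed across T helper cells with and without Tet2. They are 2 of the 19938 mouse genes with values here, and each was taken by its symbol as the probe set annotated with that gene alone. Gene Il17a (gene ID 16171) was read by 1 probe set, 10345032, and Il17f (gene ID 257630) by 1 probe set, 10353415, so no choice between probe sets was needed. RNA was measured on 8 whole-transcript Affymetrix arrays in 4 groups of 2 arrays. These were Tet2-deficient Th17 cells from CD2(Cre)Tet2(f/f) mice, wild-type Th17 cells from Tet2(f/f) mice, and Th1 cells of both genotypes. The wild-type animals also carried the loxP-flanked Tet2 alleles, and the genotypes differed in the Cre gene, which is driven by the CD2 promoter, active in lymphocytes. Age, sex, culture conditions, the cytokines used for polarization and the number of animals per array are not given in the sources used here. The titles call the arrays biological replicates without saying that they came from separate animals, so p-values measure only the spread between these arrays.

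Both proteins are secreted by Th17 cells and bind as homodimers, or joined to each other, to a receptor built from the chains Il17ra and Il17rc on epithelial cells, fibroblasts and other tissue cells. Those cells answer with neutrophil-attracting chemokines and antimicrobial peptides, and the pathway is known for defence against fungi and bacteria at barriers and for autoimmune inflammation. In T cells the transcription factors RORalpha (Rora), STAT3, BATF and IRF4 are known to promote transcription of both genes. T-bet, STAT5 and others are known to restrain it. Tet2 oxidizes methylated cytosine, a step in the removal of methylation at CpG dinucleotides, and the comparisons ask what its loss did to cytokine transcripts.

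The genes stand next to each other on chromosome 1, with 0 annotated genes between them in the reference annotation (GRCm38.p6), and are transcribed towards each other from start sites 53365 bases apart. The 250 bases before each start site (RefSeq, GRCm38.p6) are shown because CpG dinucleotides are the substrate on which Tet2 acts, and those dinucleotides are in capitals. The window of Il17a is chr1:20730655-20730904 on the plus strand, and that of Il17f is chr1:20784271-20784520 on the minus strand.
Il17a: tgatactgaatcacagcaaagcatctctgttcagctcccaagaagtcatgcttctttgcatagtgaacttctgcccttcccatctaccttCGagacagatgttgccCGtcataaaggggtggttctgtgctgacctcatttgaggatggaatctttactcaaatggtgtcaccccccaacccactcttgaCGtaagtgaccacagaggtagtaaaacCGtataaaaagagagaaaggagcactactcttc
Il17f: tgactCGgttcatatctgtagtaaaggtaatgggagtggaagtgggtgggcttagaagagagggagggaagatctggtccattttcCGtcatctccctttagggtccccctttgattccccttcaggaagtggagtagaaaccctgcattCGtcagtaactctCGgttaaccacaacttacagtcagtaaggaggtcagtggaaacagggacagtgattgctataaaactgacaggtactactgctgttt
Each window held 4 CpG dinucleotides. They lay 160, 144, 60 and 33 bases before the start of Il17a, and 245, 164, 100 and 87 bases before the start of Il17f. Of 32851 such windows in the mouse reference, 44.4% held 4 or fewer, and the median was 6, and both promoters held the same number. Methylation itself was not measured on these arrays.

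The same windows were searched on both strands for 5 motifs. The motif AGGTCA, which RORalpha is known to bind, was present in 14% of all windows and occurred 1 time in each promoter, 120 bases before the start of Il17a and 58 bases before that of Il17f. A TATA box (TATAAA, 12.4% of windows) began 31 bases before the start of Il17a and 29 bases before that of Il17f. The RUNX motif ACCACA (14% of windows) occurred 52 bases before Il17a and 81 bases before Il17f. The AP-1 motif TGANTCA (6.7% of windows) occurred only in Il17a, 244 bases before the start, and the STAT motif TTCNNNGAA (7.0% of windows) had 0 matches in either window. None of the matches overlapped another. A match describes letters in the window and does not show binding.

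The labelled cell types were checked against marker genes before the results. Th17 arrays were higher than Th1 arrays for the measured Th17 markers, as in Il23r, the receptor for IL-23, with log2 fold changes of 4.20 ± 0.15 in Tet2-deficient and 4.53 ± 0.15 in wild-type cells (SE, limma, adjusted p = 1.1e-08 and 6.53e-09). Rora and Ccr6 were called as well, 3 of 3 measured Th17 markers, while Il22 and Il1r1 were not analysed here. Of the 6 Th1 markers, 5 were lower in Th17 cells of either genotype, led by Ifng at -4.35 ± 0.14 in Tet2-deficient and -5.69 ± 0.14 in wild-type cells (adjusted p = 3.0e-09 and 2.24e-10). The median log2 signal of all genes lay between 6.53 and 6.61 on every array, and 0 arrays were duplicates. The targeted gene Tet2 had 8.34 and 8.39 on the Tet2-deficient Th17 arrays, against 8.51 and 8.49 on the wild-type Th17 arrays (log2 fold change -0.14 ± 0.12, adjusted p = 0.99996). It had 8.12 and 7.98 on the Tet2-deficient Th1 arrays, against 8.14 and 8.02 on the wild-type Th1 arrays. Which exons were deleted, and whether the probes lie in them, is not given in the sources used here, so these values do not check the labels. The Th17 arrays also differed in Xist, a transcript of female cells. Taking the linear Xist signal of Tet2-deficient Th17 replicate 2 as 100%, the female share was 14.7% on Tet2-deficient Th17 replicate 1, against 0.187% and 42.9% on the wild-type Th17 replicates 1 and 2. On Th1 arrays this share ran from -0.130% to 0.105%.

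Il17a was lower on both Tet2-deficient Th17 arrays than on both wild-type Th17 arrays, while Il17f overlapped between the genotypes. Of all genes, 32.9% did not overlap between these genotypes on the same arrays. The Il17a log2 signal was 9.41 and 8.87 on replicates 1 and 2 of Tet2-deficient Th17 cells, against 9.79 and 9.84 in wild-type Th17 cells. The lowest value was on the array with the highest Xist. Female shares were 14.7% and 100% on replicates 1 and 2 of Tet2-deficient Th17 cells, against 0.187% and 42.9% in wild-type Th17 cells. The part of the sex difference in the Il17a values was not tested beyond the covariate. The Il17f log2 signal was 10.99 and 10.60 on the Tet2-deficient Th17 arrays, against 10.73 and 11.04 on the wild-type Th17 arrays. The lowest of these was a Tet2-deficient array and the highest a wild-type array, and the means were 10.80 ± 0.27 in Tet2-deficient and 10.88 ± 0.21 in wild-type Th17 cells (SD, n = 2 each). For Il17a the means were 9.14 ± 0.38 in Tet2-deficient and 9.81 ± 0.04 in wild-type Th17 cells (SD, n = 2 each).

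In Th1 cells both genes lay near the bottom of their ranges. Il17a had 6.0 and 6.14 on the Tet2-deficient Th1 arrays, against 5.90 and 6.18 on the wild-type Th1 arrays. All of these Il17a values were under the array's median gene level. Il17f had 6.64 and 6.76 on the Tet2-deficient Th1 arrays, against 6.54 and 6.83 on the wild-type Th1 arrays, values around the median gene level. The genotypes overlapped in Th1 cells for both genes. The order of groups by mean was therefore wild-type Th17, Tet2-deficient Th17 and then both Th1 groups for Il17a. For Il17f the same order held by mean, with no separation between the Th17 genotypes or between the Th1 genotypes. Array signals of bulk cells cannot tell fewer cells that make a transcript from less of it per cell.

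**Figure D1:**
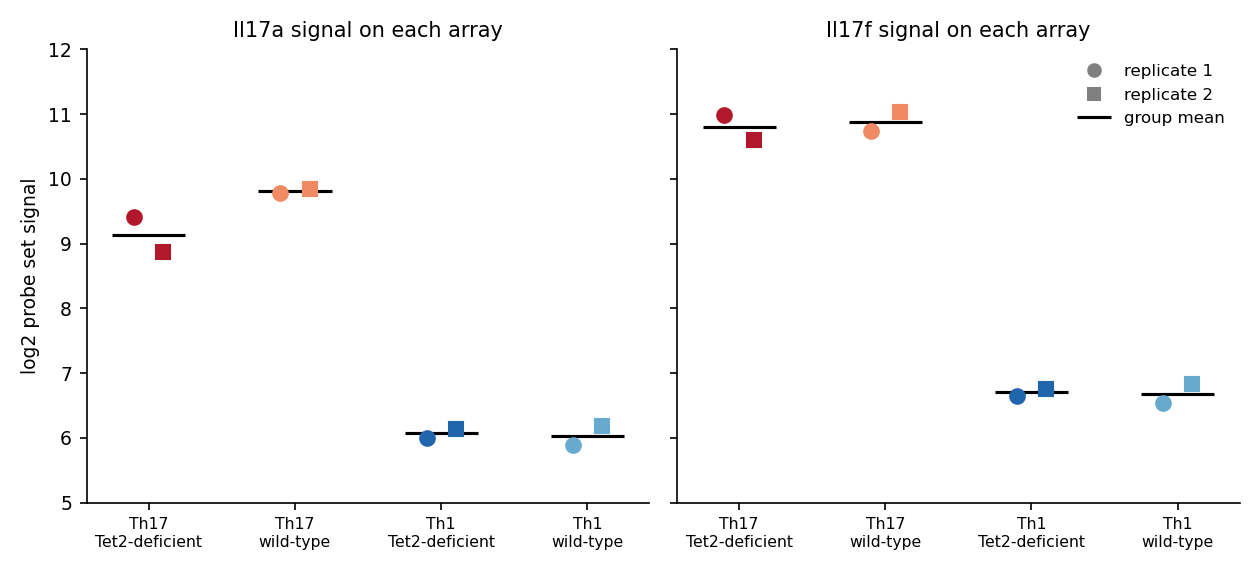
Log2 probe set signal (y axis) of Il17a (left) and Il17f (right) on each array, by group (x axis), with circles for replicate 1, squares for replicate 2 and bars for group means. Tet2-deficient Th17 arrays sit below wild-type Th17 arrays for Il17a (9.41 and 8.87 against 9.79 and 9.84) and overlap them for Il17f, and all Th1 arrays sit below 7.

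Set against the spread over all groups, the Il17a difference in Th17 cells did not pass correction over all genes. Its log2 fold change was -0.67 ± 0.16 (SE, n = 2 and 2), a 1.60-fold lower signal, with a 95% interval of -1.03 to -0.32 and an adjusted p of 0.728 (limma, Benjamini-Hochberg over 19938 genes). By unadjusted p (0.00143) it ranked 38 of 19938 genes, and by size it was the 16th most negative. Of all genes, 0% were called in this comparison, and 824 (4.13%) had an unadjusted p under 0.05. Il17f had -0.09 ± 0.16 (95% interval -0.44 to 0.26, adjusted p = 0.99996). The Il17a value of -0.67 lay outside this interval, and the intervals of both genes overlap. Such an overlap neither shows nor excludes a difference between the genes, which was looked at within each array. Both intervals are for a single gene and are not widened for the number of genes tested.

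Single arrays moved these values. With replicate 2 of the Tet2-deficient Th17 cells left out, Il17a was at -0.41 ± 0.16 and Il17f at 0.11 ± 0.19. Without Tet2-deficient Th17 replicate 1 Il17a was at -0.94 ± 0.16 and Il17f at -0.28 ± 0.18. Il17f also turned positive without wild-type Th17 replicate 2 (0.07 ± 0.19), whereas Il17a kept its direction with any array left out (adjusted p from 0.151 to 0.99991). With the female share as a covariate Il17a was at -0.50 ± 0.17 (adjusted p = 0.99981) and Il17f at -0.01 ± 0.19.

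In Th1 cells Il17a had a log2 fold change of 0.03 ± 0.16 (95% interval -0.32 to 0.39, adjusted p = 0.986) and Il17f of 0.02 ± 0.16 (95% interval -0.33 to 0.37, adjusted p = 0.991). In that comparison 0.00502% of genes were called. The difference between the Th17 and the Th1 effect was -0.71 ± 0.23 for Il17a (95% interval -1.21 to -0.20) and -0.10 ± 0.23 for Il17f (95% interval -0.60 to 0.39). Neither passed (adjusted p = 0.999 for both), with 0% of genes called. The Il17a effect of Tet2 loss was thus not shown to differ between the subsets after correction over all genes.

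**Figure D2:**
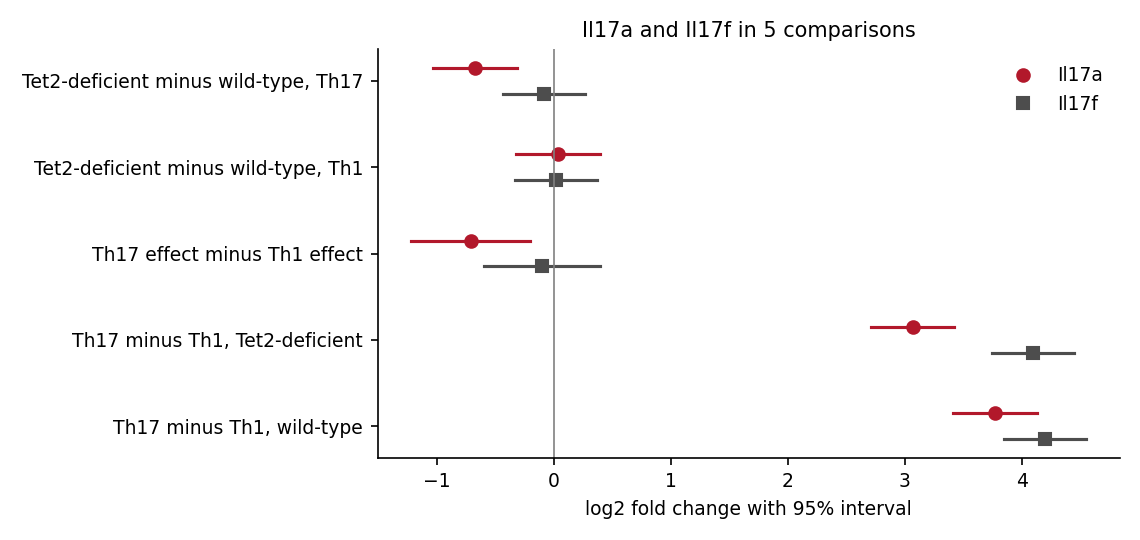
Log2 fold changes (x axis) with 95% intervals for Il17a (circles) and Il17f (squares) in the 5 comparisons. The Il17a interval for Tet2 loss in Th17 cells (-1.03 to -0.32) excludes 0 without correction for the number of genes, that of Il17f (-0.44 to 0.26) does not, and the subset differences are 3.07 and 4.10 in Tet2-deficient and 3.78 and 4.20 in wild-type cells.

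Whether the linked genes differed in their change was also looked at within each array, as the Il17a minus the Il17f log2 signal. This difference compares no levels, since the probe sets differ in sensitivity, but a shift in it is a difference between the changes of both signals. It was -1.59 and -1.73 on the Tet2-deficient Th17 arrays, against -0.95 and -1.20 on the wild-type Th17 arrays, and the genotypes did not overlap, as was also true of 32.9% of single genes. In Th1 cells it was -0.64 and -0.62 on the Tet2-deficient arrays, against -0.64 and -0.65 on the wild-type arrays. Il17a lay under the median gene level there and is not shown to be above background, so the Th1 values are no measure of stability to set beside the Th17 shift. The Th17 means were -1.66 ± 0.10 in Tet2-deficient and -1.07 ± 0.18 in wild-type cells (SD, n = 2 each), a shift of -0.59. An exact two-sided permutation test over the 4 arrays gave p = 0.33, the smallest value that 2 arrays against 2 can give. The shift was between -0.71 and -0.46 with any of the Th17 arrays left out. It was -0.51 without Tet2-deficient replicate 2 and -0.66 without Tet2-deficient replicate 1. In Th1 cells the shift was 0.02 (exact permutation p = 0.667).

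Within each Th17 genotype, both genes differed in the same direction between the replicates. With 2 arrays per group this does not show that they vary together. On Tet2-deficient Th17 replicate 2 both were lower than on replicate 1, with a range of 0.53 for Il17a and 0.39 for Il17f. In wild-type Th17 cells both were higher on replicate 2, by 0.053 for Il17a and 0.30 for Il17f. The cause of these differences between arrays of a group was not tested.

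**Figure D3:**
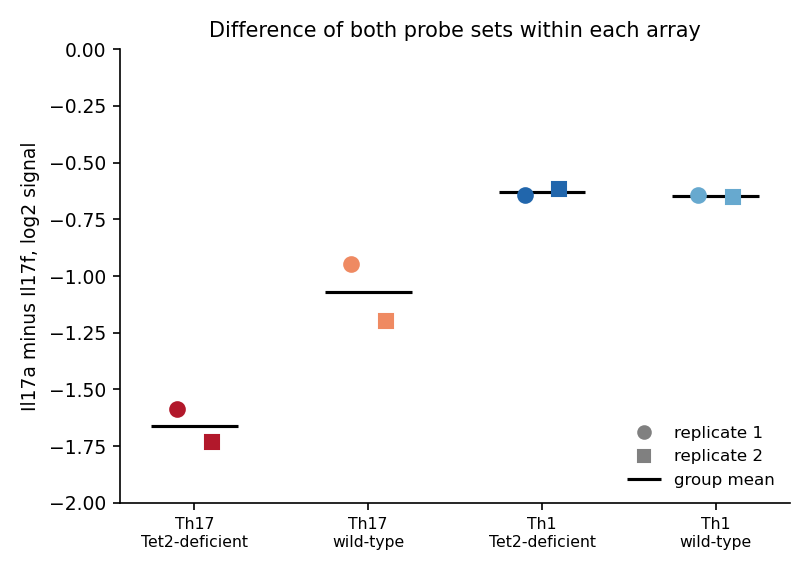
Il17a minus Il17f log2 signal (y axis) on each array, by group (x axis), with circles for replicate 1, squares for replicate 2 and bars for group means. The Tet2-deficient Th17 arrays sit lowest, at -1.59 and -1.73, the wild-type Th17 arrays at -0.95 and -1.20, and the values lay between -0.65 and -0.62 on all 4 Th1 arrays.

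Th17 cells carried far more of both transcripts than Th1 cells in either genotype. Il17a was higher by a log2 fold change of 3.07 ± 0.16 in Tet2-deficient cells (8.38-fold, adjusted p = 3.34e-07) and of 3.78 ± 0.16 in wild-type cells (13.7-fold, adjusted p = 4.49e-08, limma, n = 2 and 2). Il17f was higher by 4.10 ± 0.16 in Tet2-deficient cells (17.1-fold, adjusted p = 2.06e-08) and by 4.20 ± 0.16 in wild-type cells (18.4-fold, adjusted p = 2.18e-08). No background level is given, so neither gene is shown to be above background in Th1 cells, where Il17a lay under and Il17f around the median gene level. Either may be at a floor there. The folds of 8.38 and 13.7 for Il17a, and of 17.1 and 18.4 for Il17f, are therefore estimates that may understate the difference. Among all genes, by these signals, Il17f ranked 3 and 2 by upward size in Tet2-deficient and wild-type cells, and Il17a ranked 6 and 3. In these comparisons 10.1% of genes were called in Tet2-deficient cells (6.32% higher and 3.79% lower in Th17 cells) and 8.4% in wild-type cells (4.97% higher and 3.44% lower).

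None of the 6 IL-17 family ligands was called after Tet2 loss in Th17 cells. Il17b, Il17c, Il17d and Il25, known from epithelial and other tissue cells more than from Th17 cells, had log2 fold changes between Tet2-deficient and wild-type Th17 cells of -0.03 ± 0.10, -0.07 ± 0.11, -0.06 ± 0.11 and 0.06 ± 0.11. None of these passed the test, and 5 of the 6 ligands were below 0 (3 of 6 without Tet2-deficient or without wild-type Th17 replicate 2). Between subsets, 2 of the 6 ligands were called in either genotype, Il17a and Il17f themselves. Of the 5 receptor chains 0 were called after Tet2 loss in Th17 cells. Il17ra, the chain shared by most family members, had 9.04 and 9.02 in Tet2-deficient against 8.67 and 8.94 in wild-type Th17 cells, a log2 fold change of 0.23 ± 0.12 (adjusted p = 0.99996). Il17rc, its partner for IL-17A and IL-17F, had 0.03 ± 0.11. The other chains had -0.15 ± 0.11 (Il17rb, a receptor for IL-25), 0.14 ± 0.11 (Il17rd) and 0.06 ± 0.12 (Il17re, a receptor for IL-17C). Against Th1 cells, Il17ra was higher in Tet2-deficient Th17 cells by 0.46 ± 0.12 (adjusted p = 0.0366), a call that ended in 8 alternatives, among them leaving out any of the 4 arrays compared.

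The measured genes nearest to the pair on chromosome 1 were set beside it. On the Il17a side the 5 nearest measured genes, Mir206, Pkhd1, Tfap2b, Tfap2d and Defb41, lay under the median gene level on every array. Their log2 fold changes after Tet2 loss in Th17 cells ran between -0.10 (Tfap2d) and 0.09 (Defb41), none passing. On the Il17f side, Mcm3, a subunit of the replicative DNA helicase, had 0.22 ± 0.12 and Paqr8, a membrane progestin receptor gene, had 0.37 ± 0.15. Tram2, Tmem14a and Gsta3 had 0.03 ± 0.12, 0.16 ± 0.12 and -0.07 ± 0.11. None of these passed (adjusted p = 0.99996). Paqr8 was the only 1 of the 10 that was called between subsets, higher in Th17 than in Th1 cells by 1.17 ± 0.15 in Tet2-deficient cells (adjusted p = 0.000449) and 0.96 ± 0.15 in wild-type cells (adjusted p = 0.00215). Of all genes, 10.1% were called between subsets in Tet2-deficient and 8.4% in wild-type cells, so 1 of 10 is near the share of all genes. Mcm3, which lies between Paqr8 and Il17f, had 0.29 ± 0.12 in Tet2-deficient and 0.11 ± 0.12 in wild-type cells and was not called.

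**Figure D4:**
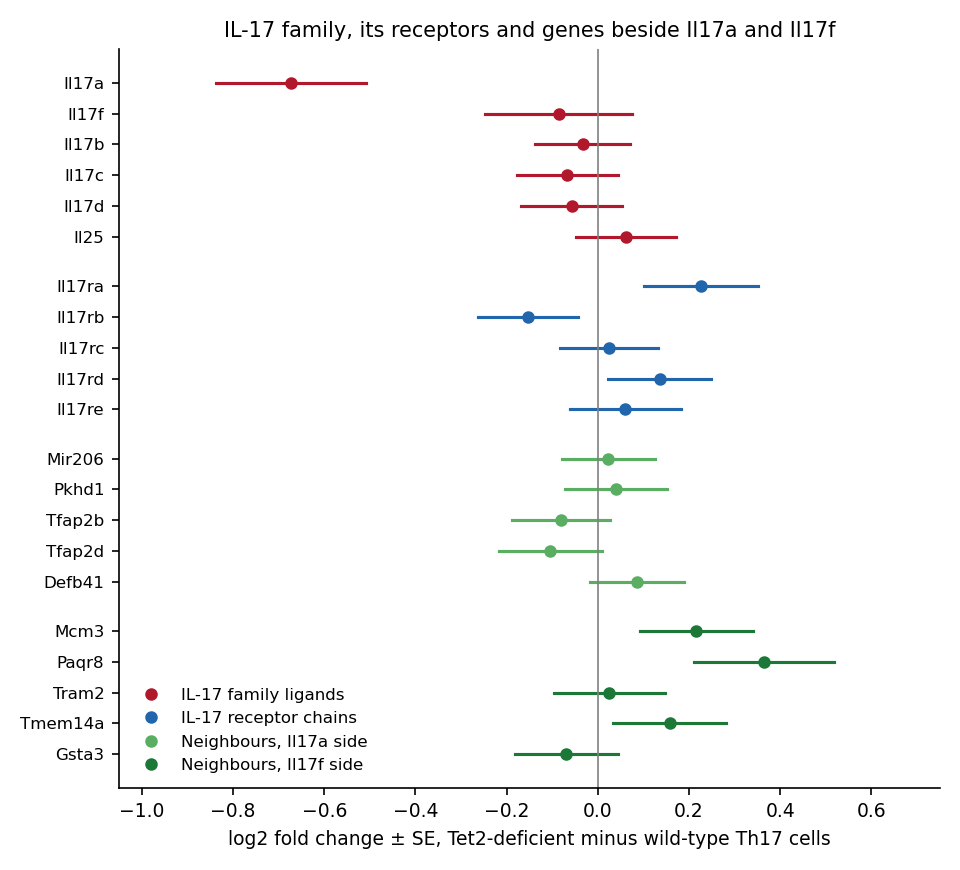
Log2 fold changes with SE (x axis) between Tet2-deficient and wild-type Th17 cells for the IL-17 ligands, the receptor chains and the 5 nearest measured genes on each side of Il17a and Il17f. Il17a stands at -0.67, and the other 20 genes lie between -0.15 and 0.37.

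Factors known to promote Il17a and Il17f transcription gave no call after Tet2 loss. Of 31 listed inducers 28 were measured, and in Tet2-deficient against wild-type Th17 cells 0 were called, with 12 below 0, 16 above 0 and a median log2 fold change of 0.08 (all genes had a median of 0.01 with 45.6% below 0). Which side held more members depended on single arrays, with 16 and 17 of 28 below 0 without replicate 1 of Tet2-deficient or of wild-type Th17 cells. The count was 8 of 28 without replicate 2 of either. The largest values pointed both ways. Tgfbr1, a chain of the TGF-beta receptor, had -0.52 ± 0.13 (8.22 and 8.26 in Tet2-deficient against 8.87 and 8.64 in wild-type Th17 cells, adjusted p = 0.743), and Il21, a cytokine that feeds back on Th17 cells, had -0.42 ± 0.17. Nfatc3, a calcium-responsive factor, had 0.39 ± 0.12, and the factors Ahr, Rora and Batf had 0.32 ± 0.15, 0.31 ± 0.13 and 0.28 ± 0.13. None of the 6 passed (adjusted p from 0.743 to 0.99996).

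Between subsets the same list was called often. In Tet2-deficient cells 11 of 28 inducers were higher in Th17 cells and 0 lower, and in wild-type cells 12 were higher and 1 (Il21r) lower, against the 6.32% and 4.97% of all genes called higher. Maf, a factor known to act in Th17 cells, was higher by 3.52 ± 0.24 in Tet2-deficient and 3.67 ± 0.24 in wild-type cells. Rora was higher by 2.41 ± 0.13 and 2.13 ± 0.13, and Ahr, the aryl hydrocarbon receptor, by 1.85 ± 0.15 and 1.66 ± 0.15 in Tet2-deficient and wild-type cells. Tgfbr1 was called in wild-type cells (1.15 ± 0.13, adjusted p = 0.000188), and in Tet2-deficient cells it had 0.41 ± 0.13 (adjusted p = 0.0686), which passed under 6 alternatives.

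Factors known to restrain Il17a and Il17f gave 0 calls among 19 of 22 measured after Tet2 loss in Th17 cells, with 11 below 0 and a median of -0.02. Without replicate 2 of Tet2-deficient or of wild-type Th17 cells 5 of 19 were below 0. Bcl6 encodes a transcriptional repressor characteristic of follicular helper T cells. It had 8.49 and 8.28 in Tet2-deficient against 7.49 and 7.79 in wild-type Th17 cells, a log2 fold change of 0.75 ± 0.14 (adjusted p = 0.377). Tbx21, which encodes T-bet, had 6.92 and 7.28 in Tet2-deficient against 7.45 and 7.85 in wild-type Th17 cells and a change of -0.55 ± 0.16 (adjusted p = 0.789). Il2, whose product acts through STAT5, had -0.60 ± 0.17 (adjusted p = 0.789) and Id3 had 0.55 ± 0.21 (adjusted p = 0.99996). The groups did not overlap for these 4 genes, none of which passed, as was true of 32.9% of all genes on the Th17 arrays. Between subsets 3 repressors were higher and 6 lower in Th17 cells of the Tet2-deficient genotype, against 4 higher and 4 lower in wild-type cells. Of all genes, 6.32% were called higher and 3.79% lower in Tet2-deficient cells, against 4.97% higher and 3.44% lower in wild-type cells.

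Genes of the wider Th17 signature, a list that leaves out Il17a and Il17f, had values below 0 for 20 of 25 measured members in Tet2-deficient against wild-type Th17 cells, with a median of -0.11 and 0 called. Of all genes, 45.6% were below 0. The count of signature genes below 0 was 18 to 20 with a Th17 array left out. Ccl20, a chemokine that draws cells carrying Ccr6 and that is also a target of IL-17 in tissue cells, had 8.25 and 7.71 in Tet2-deficient against 9.08 and 8.94 in wild-type Th17 cells. Its log2 fold change was -1.03 ± 0.18 (adjusted p = 0.229), with no overlap between the genotypes, as was true of 32.9% of all genes. Il24 (-0.43 ± 0.15), Il10 (-0.41 ± 0.11, under the median gene level on every array) and Tnfsf8 (-0.38 ± 0.12), a ligand of the TNF family, did not pass either. Il23r had -0.22 ± 0.15 and did not pass. Between subsets 6 signature genes were higher and 6 lower in Tet2-deficient Th17 cells, against 8 higher and 3 lower in wild-type Th17 cells. These counts compare with the same shares of all genes (6.32% higher and 3.79% lower, against 4.97% and 3.44%), and the difference between the genotypes' counts was not tested.

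Signals downstream of the IL-17 receptor, read within the T cells themselves, showed 0 calls. Of 14 measured signalling genes 6 were below 0 with a median of 0.04, the largest being the adaptor Traf6 at -0.27 ± 0.13 (adjusted p = 0.99996). Of 14 IL-17 response genes 6 were below 0 with a median of 0.03, and 12 lay under the median gene level on every array, Ccl20 and Cxcl1 being the exceptions.

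Markers of other cells that can make IL-17 or share the culture were set beside these values. Of 17 listed markers of gamma-delta T cells, NKT cells and innate lymphocytes 9 were measured, 4 of them under the median gene level on every array. Their summed signal was 11.1 to 11.3 on the log2 scale in Tet2-deficient and 11.2 to 11.2 in wild-type Th17 cells. That sum is led by Il7r, which T cells in general express, with 10.9 and 10.7 in Tet2-deficient against 10.79 and 10.79 in wild-type Th17 cells, so it is no measure of these cell types. Of 9 CD8 and NK cell markers 8 were above 0 in Tet2-deficient Th17 cells, with a summed log2 signal of 9.13 to 9.49 against 8.87 to 8.93 in wild-type Th17 cells, and 6 of the 9 were under the median gene level on every array. Among them the NK receptor gene Klrd1 had 1.25 ± 0.20 (adjusted p = 0.183). With an array left out, Klrd1 ranged from 0.84 to 1.66, the highest being without Tet2-deficient Th17 replicate 1. Of 8 myeloid markers 7 were above 0, with 10.5 to 10.7 in Tet2-deficient against 9.69 to 10.02 in wild-type Th17 cells, a sum led by Ly6g (0.98 ± 0.17, adjusted p = 0.229), and the other 7 were under the median gene level on every array. Of 4 measured B cell markers 2 were below 0, with a summed log2 signal of 7.61 to 7.74 in Tet2-deficient against 7.63 to 7.76 in wild-type Th17 cells. Of 8 T cell markers 3 were below 0, with a summed log2 signal of 13.90 to 13.95 in Tet2-deficient against 13.82 to 13.93 in wild-type Th17 cells. Among all genes 45.6% were below 0 in this comparison. The part of these cells in the Il17a values was not tested.

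Genes whose profile over the 8 arrays was most like that of either member were found by Pearson's r among 434 genes with group means at least 1 apart on the log2 scale. The arrays fall into the Th1 and Th17 subsets and share libraries between genes, so r is given as a likeness only. Il17a was closest to Adam19 (r = 0.996), Cpox (0.995), Cd101 (0.994), Cysltr1 (0.993) and Paxbp1 (0.992), with Il17f in place 6 (0.992). Il17f was closest to Cd101 (r = 0.999), Cpd (0.996), Maf (0.996), Ssh2 (0.996) and Cysltr1 (0.994), with Il17a in place 13. Adam19, a membrane metalloprotease gene, had 9.19 and 8.83 on the Tet2-deficient Th17 arrays, against 9.27 and 9.44 on the wild-type Th17 arrays. Its log2 fold change was -0.34 ± 0.14 after Tet2 loss, not passing. Cd101, which encodes an immunoglobulin superfamily receptor, had 7.34 and 7.11 on the Tet2-deficient Th17 arrays, against 7.23 and 7.43 on the wild-type Th17 arrays. Maf had 10.6 and 9.81 on the Tet2-deficient Th17 arrays, against 10.001 and 10.5 on the wild-type Th17 arrays. Cd101 and Maf thus overlapped between the genotypes as Il17f did, with the lower value on Tet2-deficient replicate 2 and on wild-type replicate 1. Their log2 fold changes after Tet2 loss were -0.11 ± 0.12 for Cd101 and -0.06 ± 0.24 for Maf. The genotypes did not overlap for Cysltr1, a receptor for cysteinyl leukotrienes, or for Paxbp1, whose log2 fold changes were -0.28 ± 0.15 and -0.29 ± 0.14. Ssh2, a phosphatase of the actin regulator cofilin, lay the other way without overlap (0.12 ± 0.13). Of all genes, 32.9% did not overlap between these genotypes. Cpox, an enzyme of heme synthesis, and Cpd, a carboxypeptidase, overlapped between the genotypes (-0.12 ± 0.12 and -0.11 ± 0.15). None of these 8 genes passed the test after Tet2 loss in Th17 cells (adjusted p = 0.99996).

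**Figure D5:**
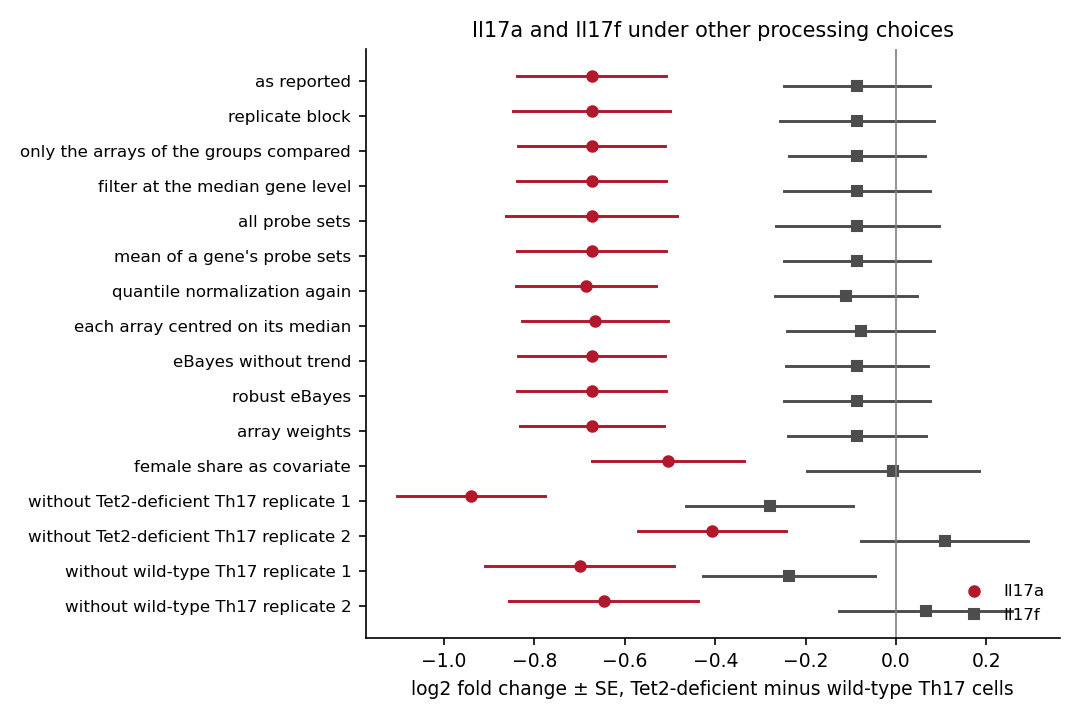
Log2 fold changes with SE (x axis) between Tet2-deficient and wild-type Th17 cells for Il17a (circles) and Il17f (squares) under the alternatives to the processing. Fits that left out a Th1 array are not drawn. Il17a stayed between -0.94 and -0.41 throughout, and Il17f crossed 0 without Tet2-deficient or without wild-type Th17 replicate 2.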

How the data were processed

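Labelled total RNA of 8 samples was hybridised to Affymetrix whole-transcript arrays. The deposited values are log2 probe set signals, made by the authors with Affymetrix Expression Console, GCOS and RMA, per the submitters' processing notes, which give no version, order or build here. No further scaling was applied. Precision is set by how few arrays there are, as array signals carry no read depth. Of 35556 probe sets, 21789 carried 1 symbol in the platform annotation, 1621 several and 12146 none given. The probe set with the highest mean was kept per gene, which gave 19938 genes, with no filter on low signal.

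Genes were fitted with limma 3.58.1 (R 4.3.3) on 4 group means over all 8 arrays, with eBayes and an intensity trend. Tests were two-sided, and a gene was called at a Benjamini-Hochberg adjusted p under 0.05 over all genes. The method was tested on simulated data with noise independent between genes. Over 10 runs with 200 changed genes each, 74% of 1.5-fold and 99.7% of 2-fold changes were found. On average 7.77% of calls were false, above the 0.05 set by the threshold. The within-array difference of Il17a and Il17f was compared by exact permutation over arrays. Replicate numbers were not used as a block, because deviations of same-numbered arrays from their group means had correlations of -0.186 to 0.061 across genes.

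The members and gene lists were chosen with earlier results of these data known, so no p-value was adjusted over a list alone. The text names both members, all IL-17 ligands and receptor chains, and the 5 measured genes on each side. It also names the 5 most alike genes for each member and, of every other list, examples from the called genes and from the 6 with the largest change after Tet2 loss in Th17 cells. Cxcl1, Tet2, Xist, the marker genes Rora, Ifng and Il7r as examples and list members that were not analysed here are named outside a ranking. Alternatives were a replicate block, a fit on the compared arrays only, a filter at the median gene level, probe sets tested singly or averaged per gene, a repeat of quantile normalization, centring, eBayes without trend, robust eBayes, array weights, a female-share covariate from linear Xist signal and leaving out each array.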

Additional observations from a re-analysis of the deposited data

How the results depend on the processing

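Il17a kept its direction and stayed short of the threshold for Tet2 loss in Th17 cells under all 19 alternatives (-0.94 to -0.41 with an array left out, -0.69 to -0.50 otherwise). Its direction could change only where a Th17 array was left out, signals were rescaled or the female share was added. The other alternatives returned the same -0.67 and altered only its spread or the correction, so they do not test the direction. Both members kept their subset calls under all 19 alternatives in either genotype. Il17f after Tet2 loss in Th17 cells ranged from -0.28 to 0.11 with an array left out, and its Th17 minus Th1 effect from -0.30 to 0.0904 (0.0482 and 0.0446 without wild-type Th17 replicate 2 or Th1 replicate 1). In Th1 cells, Il17a ranged from -0.11 to 0.18 and Il17f from -0.13 to 0.16. The within-array shift kept its sign under all 11 alternatives run on it in each comparison. Its value could change only where a compared array was left out or quantile normalization was repeated, and the other alternatives returned the same value. With the replicate block, Il17a in Th17 cells had -0.67 (adjusted p = 0.856) and the within-array shift was -0.59 (exact sign permutation p = 0.5). The numbers pair no arrays, and the block changed no call on either member but ended that of Il17ra in Tet2-deficient cells. The cause of the changes was not tested.

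Genes called after Tet2 loss in Th17 cells numbered 0 as reported, 1 with the filter, 2 with robust eBayes, 2 with array weights and 0 to 4 with an array left out (4 without Tet2-deficient and 2 without wild-type Th17 replicate 1). In Th1 cells they numbered 1, and 0 on the compared arrays only or with all probe sets, and 0 to 2 with an array left out. For the difference of both effects they numbered 0, and 0 to 4 with an array left out (4 without Tet2-deficient Th17 replicate 1). Between subsets 1675 genes were called in wild-type cells, 1101 on the compared arrays only, 599 with all probe sets and 663 to 1551 with an array left out (663 without wild-type Th17 replicate 2, 1029 without wild-type Th1 replicate 1). In Tet2-deficient cells 2015 were called, 1001 with all probe sets, 726 with the female-share covariate and 801 to 2335 with an array left out (801 and 1103 without Tet2-deficient Th17 replicates 1 and 2, 933 and 1204 without the Th1 ones).

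Genes named with a fold change, Il17a and Il17f apart, were run through the same alternatives, chosen after seeing the data, as were the list counts without single Th17 arrays. Of 1183 such values, over 63 fold changes of these genes, 1150 kept direction and side of the threshold, 8 lost and 7 gained a call, and 18 turned sign. With the female-share covariate Maf was at 0.12 and Il17re at -0.0033. With an array left out, ranges that crossed 0 after Tet2 loss in Th17 cells were -0.46 to 0.34 for Maf, -0.23 to 0.0043 for Cd101, -0.33 to 0.11 for Cpd, -0.15 to 0.017 for Il17c, -0.13 to 0.019 for Il17d, -0.011 to 0.13 for Il25, -0.044 to 0.17 for Il17re, -0.018 to 0.068 for Tram2, -0.071 to 0.15 for Pkhd1, -0.17 to 0.0044 for Tfap2b, -0.015 to 0.33 for Tmem14a and -0.14 to 0.0059 for Gsta3.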
